A study of Mus musculus with 8 samples.

Results

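The proteasome subunits described here are the 41 of 24411 gene symbols of the count table that read Psma, Psmb, Psmc or Psmd followed by a number, or Psme1 to Psme4, and that had at least 10 counts in each of the 8 libraries. The rule used the symbol and the counts and no comparison between groups. It matched 43 symbols, of which 2 did not reach the count minimum. These were Psma8, a testis alpha subunit with 3 to 23 counts a library, and Psmb11, the thymus beta subunit with 0 counts in all 8 libraries. The lowest counts of a member were those of Psmd10, with 102 to 211 counts, and of Psmb9, with 156 to 318 counts. All 41 members passed the filter on low counts and were tested. The symbols Psmc3ip (14 to 44 counts) and Psme2b (39 to 93 counts) fall outside the rule. Psmc3ip encodes a recombination factor and no proteasome subunit, and Psme2b is a near copy of Psme2, so that the division of reads between Psme2 and Psme2b is uncertain.

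Liver RNA of neonatal mice was sequenced in 4 groups of 2 libraries. The groups were hUGT1/Atf4ΔHep mice given triclosan (TCS), an antimicrobial of consumer products, hUGT1/Atf4F/F mice given TCS, hUGT1/Atf4ΔHep mice given vehicle and hUGT1/Atf4F/F mice given vehicle. All mice carried the human UGT1 locus in place of the mouse Ugt1 genes, on a C57BL/6 background, and both sexes were used. In Atf4ΔHep mice Cre under the albumin promoter deletes floxed Atf4 in hepatocytes, so that other liver cells keep the gene, and Atf4F/F mice carry the floxed alleles without deletion. Pups received 50 mg/kg TCS or vehicle by gavage on 4 consecutive days from 10 days of age, and each library was made from the pooled RNA of 2 mice. The methods for sequencing give an age of 14 days.

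The proteasome is the main protease for ubiquitin-tagged proteins in the cytosol and nucleus. Its 20S core is a barrel in which rings of alpha subunits gate the entry and rings of beta subunits hold the proteolytic sites. The 19S cap binds ubiquitin chains, removes them, unfolds the substrate with a ring of ATPases and opens the gate. In the immunoproteasome the 3 proteolytic beta subunits are replaced by interferon-inducible forms, which alters the peptides cut for MHC class I molecules, and immune cells of the liver carry more of these forms than hepatocytes. Transcription of constitutive subunits is raised when proteasome activity is short, through the factor NRF1 (gene Nfe2l1), and some subunits have been linked to the oxidative stress factor NRF2 through antioxidant response elements. The members were grouped as 7 alpha subunits, 7 constitutive beta subunits, 3 immunoproteasome subunits, 6 ATPases and 11 non-ATPases of the 19S cap, 3 assembly chaperones with Psmd symbols and 4 activators.

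The 250 bases upstream of the RefSeq start site (build GRCm38.p6) are shown for the member that passed the test, Psma1, for 2 constitutive beta subunits with an antioxidant response element and for the immunoproteasome subunit Psmb8, since the direction of the TCS comparison differed between the constitutive and the immunoproteasome members. Capitals mark TGACNNNGC, the core of the antioxidant response element, in Psmb6 and Psmb5, and TTCNNNGAA, the gamma-activated site of interferon-responsive STAT factors, in Psmb8. The windows lie at chr7:114276117-114276366 (minus strand) for Psma1, chr11:70525107-70525356 (plus strand) for Psmb6, chr14:54617996-54618245 (minus strand) for Psmb5 and chr17:34197945-34198194 (plus strand) for Psmb8.
Psma1: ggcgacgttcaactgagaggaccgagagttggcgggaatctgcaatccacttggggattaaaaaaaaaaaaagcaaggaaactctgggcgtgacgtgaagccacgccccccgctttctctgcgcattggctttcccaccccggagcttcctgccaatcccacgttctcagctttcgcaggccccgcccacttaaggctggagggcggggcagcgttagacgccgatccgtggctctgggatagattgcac
Psmb6: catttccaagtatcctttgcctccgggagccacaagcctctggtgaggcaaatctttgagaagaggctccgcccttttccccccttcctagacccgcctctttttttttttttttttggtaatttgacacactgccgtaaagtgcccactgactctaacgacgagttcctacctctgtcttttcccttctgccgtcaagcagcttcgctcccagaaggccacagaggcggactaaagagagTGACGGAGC
Psmb5: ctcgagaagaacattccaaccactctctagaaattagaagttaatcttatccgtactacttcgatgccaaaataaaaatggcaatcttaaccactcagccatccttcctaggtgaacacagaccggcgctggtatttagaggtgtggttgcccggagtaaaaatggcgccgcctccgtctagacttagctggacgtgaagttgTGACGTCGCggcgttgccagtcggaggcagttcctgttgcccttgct
Psmb8: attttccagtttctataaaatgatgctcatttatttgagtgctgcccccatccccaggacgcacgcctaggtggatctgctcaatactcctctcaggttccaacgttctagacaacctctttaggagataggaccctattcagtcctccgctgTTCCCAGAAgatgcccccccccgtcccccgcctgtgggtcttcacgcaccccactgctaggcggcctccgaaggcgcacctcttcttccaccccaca
RefSeq promoter windows were matched for 35 of the 41 members, in 38 windows, and the missing ones are Psmb1, Psmb2, Psmb7, Psmc3, Psmd3 and Psmd7. Searched on both strands of the 250 upstream bases, TGACNNNGC was found in 5 of the 38 windows (Psmb5, Psmb6, Psmc6, Psmd12 and Psmd9), against 10.2% of 32851 windows of all genes. It began 47 bases upstream of the start in Psmb5 and 9 bases upstream in Psmb6. The interferon-stimulated response element, searched as GAAA, any 2 bases and GAAA, was found in 3 windows (Psmb3, Psmd4 and Psmd9), against 3.0% of all windows. The letters TTCNNNGAA, which read the same on both strands, were found in 1 of the 38 windows, against 7.0% of all windows. This was the window of Psmb8, with the match 97 bases upstream. No 2 of these matches overlapped each other. The window of Psma1 held none of the 3 motifs. By the GENCODE annotation the Psmb8 gene begins further upstream than this start, so that its window lies inside the annotated gene. A match of letters is a description and shows no bound factor.

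Library totals ranged from 11624143 to 25573210 counts, and the scaling factors (trimmed mean of M values, TMM) from 0.990 to 1.02. Values are given as CPM, the counts of a gene per 1000000 of the TMM-scaled library total. Atf4 was at 17.4 to 19.7 CPM in Atf4ΔHep libraries and at 58.6 to 62.8 CPM in Atf4F/F libraries, in the direction the labels state. Xist, transcribed in female cells, differed between pools. In Atf4ΔHep mice each treatment had 1 library high in Xist (753 CPM with TCS, 778 CPM with vehicle) and 1 low (0.346 CPM with TCS, 4.50 CPM with vehicle). In Atf4F/F mice Xist was at 718 and 758 CPM in the TCS libraries and at 23.2 and 1.05 CPM in the vehicle libraries, so that TCS and the sex makeup of the pools cannot be told apart there. Xist was unequal also in the averaged TCS comparison, in the deletion under each treatment and in the interaction. Under vehicle only an Atf4ΔHep library was high in Xist, and under TCS only an Atf4ΔHep library was low. Markers of cells other than hepatocytes also differed between pools, and in bulk tissue fewer cells of a type and less RNA per cell cannot be told apart.

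The 41 members together made up 0.289% and 0.301% of the counts of tested genes in Atf4ΔHep and 0.278% and 0.305% in Atf4F/F livers given TCS, against 0.274% and 0.257% in Atf4ΔHep and 0.264% and 0.253% in Atf4F/F livers given vehicle. Per kilobase of the principal transcript (GENCODE M21), the vehicle levels of the constitutive beta subunits had a median of 66.3 CPM per kb and those of the alpha subunits 50.4 CPM per kb. The 19S ATPases were at a median of 42.0, the non-ATPases at 41.4, the activators at 40.98, the immunoproteasome subunits at 15.7 and the assembly chaperones at 5.72 CPM per kb. Psmb6, which holds the caspase-like site, had the highest level per length, 117 CPM per kb with TCS and 105 CPM per kb with vehicle. Its immunoproteasome counterpart Psmb9 was at 9.44 CPM per kb with TCS and 10.4 CPM per kb with vehicle. Psmb5, with the chymotrypsin-like site, was the lowest constitutive beta subunit, at 29.5 CPM per kb with TCS and 25.9 CPM per kb with vehicle, although the subunits of the core are assembled in equal number.

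**Figure D1:**
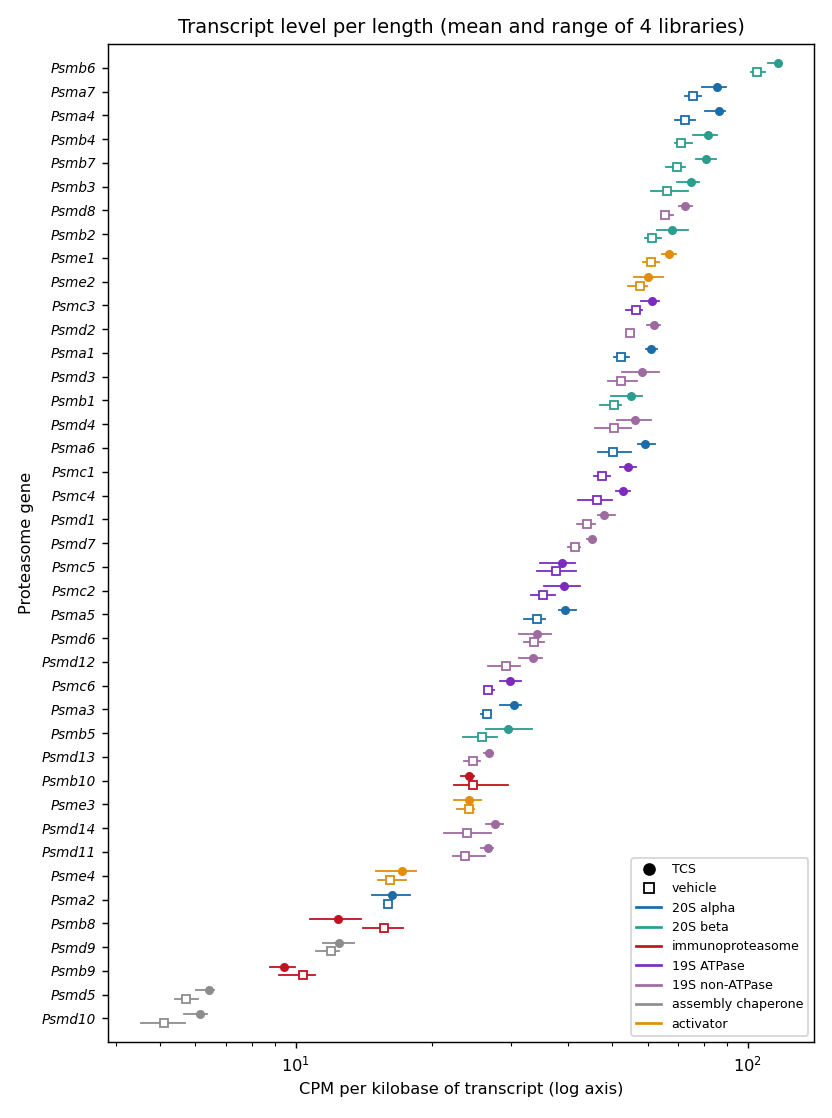
Transcript level of the 41 proteasome genes per length, in CPM per kilobase of the principal transcript on a log axis. Filled circles and the lines through them are the mean and range of the 4 TCS libraries, and open squares those of the 4 vehicle libraries. Psmb6 is at the top with 117 and 105 CPM per kb, and Psmb9 and the assembly chaperones Psmd5 and Psmd10 are at the bottom.

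The main comparison asked whether TCS changed the subunits, averaged over both genotypes. The constitutive core and cap were slightly higher with TCS as a group, and the immunoproteasome subunits were on average at or below their vehicle level. In Atf4F/F mice alone Psmb10 was above its vehicle level, at a log2 fold change of 0.13. The median log2 fold change of the 41 members was 0.15, or 1.11-fold, against -0.01 over all 13633 genes tested. Log2 fold changes were above 0 for 38 of 41 members, against 48.5% of all genes, and the 3 exceptions were the immunoproteasome subunits Psmb8, Psmb9 and Psmb10. All 31 members of the constitutive core and the 19S cap were above 0, with a median of 0.17 and a range of 0.03 (Psmd6) to 0.25 (Psma4). Xist was unequal between the treatments here, so that TCS and sex were not fully separated. When the level of Y-linked genes was a covariate, 34 of 41 members were above 0, with a median of 0.13. Then Psma2 (-0.0443), Psmc5 (-0.0385) and Psmd6 (-0.0625) of the core and cap were below 0, as was the activator Psme3 (-0.0317).

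Single genes seldom passed the test. By edgeR's quasi-likelihood test with Benjamini-Hochberg adjustment over all genes, 1 of 41 members was called at an adjusted p under 0.05, against 2.02% of all genes called higher and 0.565% called lower. This gene was Psma1. With an unadjusted p under 0.05, 28 members were higher and 1, Psmb8, was lower, against 9.41% and 7.75% of all genes. The 4 TCS libraries lay wholly above the 4 vehicle libraries for 18 members, 43.9% of them, against 7% of all genes, and wholly below for Psmb8 alone, against 5% of all genes. The members also moved together between replicates in some groups. In Atf4F/F mice given TCS 31 of 41 members were higher in replicate 2, against 50.1% of all genes. The median over the members was 0.11 on the log2 scale. In Atf4ΔHep mice given vehicle 34 of 41 were higher in replicate 1, while 49.4% of all genes were higher in replicate 2. Counts were more even in the other groups. In Atf4ΔHep mice given TCS 23 members were higher in replicate 2, and in Atf4F/F mice given vehicle 16. The 41 genes are therefore not 41 separate observations.

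**Figure D2:**
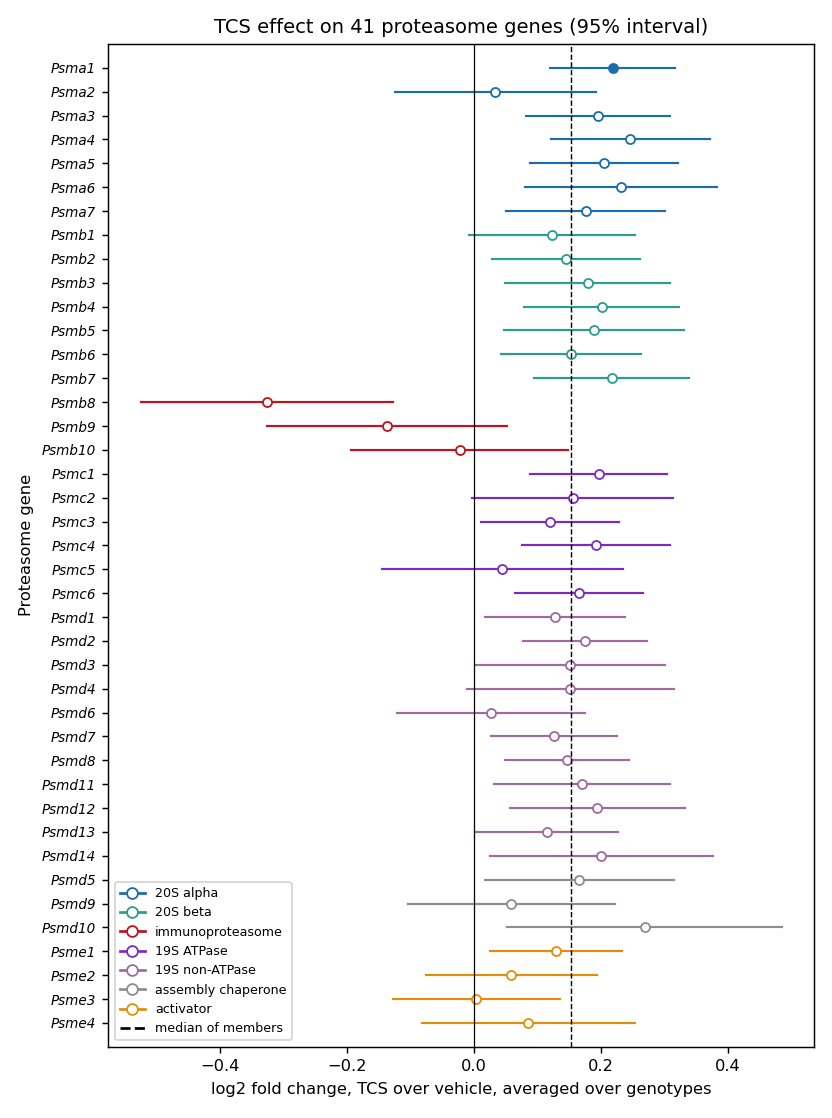
Log2 fold change of TCS over vehicle, averaged over the genotypes, for the 41 proteasome genes ordered by class. Points are the estimates and lines the 95% intervals of edgeR, the filled point is the gene called (Psma1), and the dashed line is the median of the members at 0.15. The immunoproteasome genes are left of 0 and the other classes right of it.

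Among the alpha subunits, the median log2 fold change was 0.21, and 6 of 7 did not overlap between treatments. Psma1 encodes an alpha subunit of the gate ring and lies at chromosome 7, positions 114264606 to 114276118 (GRCm38). It was at 75.6 and 72.6 CPM in Atf4ΔHep and 73.7 and 71.6 CPM in Atf4F/F livers given TCS, against 65.6 and 63.7 CPM in Atf4ΔHep and 60.7 and 62.2 CPM in Atf4F/F livers given vehicle. Every TCS library was above every vehicle library, also within each genotype. The level of Psma1 was 73.4 ± 1.71 CPM with TCS and 63.1 ± 2.09 CPM with vehicle (SD, n = 4 each). Psma1 rose 1.16-fold, a log2 fold change of 0.22 with an SE of 0.04 (adjusted p = 0.0390 by edgeR). The call was lost when any 1 of the 8 libraries was left out, with adjusted p of 0.0866 to 0.167 by edgeR, while the log2 fold change stayed between 0.20 and 0.23. With the level of Y-linked genes as a covariate, in place of the unknown share of males in each pool, the call was lost also, at a log2 fold change of 0.22 and an adjusted p of 0.186 by edgeR.

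Psma4 had the largest log2 fold change of the alpha subunits. It was at 104 and 102 CPM in Atf4ΔHep and 93.5 and 102 CPM in Atf4F/F livers given TCS, against 88.3 and 80.5 CPM in Atf4ΔHep and 88.9 and 80.5 CPM in Atf4F/F livers given vehicle. The treatments did not overlap, but the gene missed the threshold, since its log2 fold change of 0.25 had an SE of 0.06 (adjusted p = 0.0575 by edgeR). By DESeq2 3 members were called higher, namely Psma1, Psma4 and Psmd2, against 4.9% of the 7289 genes to which it gave an adjusted p (1.8% were called lower). Psma3, Psma5, Psma6 and Psma7 had log2 fold changes of 0.18 to 0.23 and no overlap of the treatments. Psma2 had the smallest log2 fold change of the alpha subunits, and its treatments overlapped. It was at 42.8 to 52.1 CPM with TCS and 45.7 to 47.3 CPM with vehicle, with a log2 fold change of 0.03 (SE 0.07).

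The 7 constitutive beta subunits had a median log2 fold change of 0.18, all above 0. Psmb7, with the trypsin-like site, was highest among them. It was at 96.0 and 91.4 CPM in Atf4ΔHep and 89.3 and 98.7 CPM in Atf4F/F livers given TCS, against 82.1 and 80.1 CPM in Atf4ΔHep and 76.4 and 84.2 CPM in Atf4F/F livers given vehicle. The treatments did not overlap, and the log2 fold change was 0.22 (SE 0.05, adjusted p = 0.0785 by edgeR). Psmb6 had 88.6 to 95.1 CPM with TCS and 81.0 to 86.9 CPM with vehicle, a log2 fold change of 0.15. Psmb4, a structural subunit, had 89.3 to 101 CPM with TCS and 81.5 to 88.9 CPM with vehicle, a log2 fold change of 0.20. The treatments were apart for Psmb4 and Psmb6 also, whereas those of Psmb1, the lowest of the class at 0.12, overlapped.

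Psmb5 ranked its libraries by genotype as well as by treatment. It was at 29.9 and 27.7 CPM in Atf4ΔHep and 24.9 and 23.7 CPM in Atf4F/F livers given TCS, against 24.6 and 25.1 CPM in Atf4ΔHep and 21.0 and 22.3 CPM in Atf4F/F livers given vehicle. Within each genotype the TCS libraries were above the vehicle libraries, and the Atf4F/F TCS libraries overlapped the Atf4ΔHep vehicle libraries. The log2 fold change of TCS over vehicle was 0.19 (SE 0.06, adjusted p = 0.167 by edgeR).

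The 6 ATPases of the 19S cap, whose ring unfolds substrates, had a median log2 fold change of 0.16. Psmc1 was the highest, with 82.9 to 89.9 CPM with TCS and 72.5 to 78.8 CPM with vehicle, a log2 fold change of 0.20. Psmc4 (0.19) and Psmc6 (0.17) did not overlap between treatments either. Psmc5, at 45.7 to 54.6 CPM with TCS and 45.03 to 54.8 CPM with vehicle, had a log2 fold change of 0.04 (SE 0.08) and its treatments overlapped almost fully.

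Of the 11 non-ATPases of the cap all were above 0, with a median log2 fold change of 0.15. Psmd2, a large scaffold of the base, was at 185 and 184 CPM in Atf4ΔHep and 177 and 189 CPM in Atf4F/F livers given TCS, against 166 and 161 CPM in Atf4ΔHep and 164 and 161 CPM in Atf4F/F livers given vehicle. All TCS libraries exceeded all vehicle libraries, and the log2 fold change was 0.18 (SE 0.04, adjusted p = 0.0753 by edgeR). Psmd1, Psmd7, Psmd8 and Psmd13 had log2 fold changes of 0.11 to 0.15 and no overlap. Psmd14, the deubiquitinase of the lid, had the largest log2 fold change, 0.20 (SE 0.08), but its 40.7 to 44.2 CPM with TCS overlapped the 32.8 to 41.6 CPM with vehicle. The ubiquitin receptor Psmd4 had a log2 fold change of 0.15, and Psmd6 the smallest of the cap, 0.03.

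The assembly chaperones hold ATPases before the cap is complete and are not part of the mature particle. Psmd10 (gankyrin) was at 8.83 and 8.10 CPM in Atf4ΔHep and 9.12 and 9.10 CPM in Atf4F/F livers given TCS, against 7.60 and 8.14 CPM in Atf4ΔHep and 6.49 and 6.96 CPM in Atf4F/F livers given vehicle. The overlap lay between the Atf4ΔHep libraries, and the averaged log2 fold change was 0.27 (SE 0.10, adjusted p = 0.196 by edgeR). Psmd5 had a log2 fold change of 0.17 and Psmd9 of 0.06. Psmd10 lies on chromosome X.

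**Figure D3:**
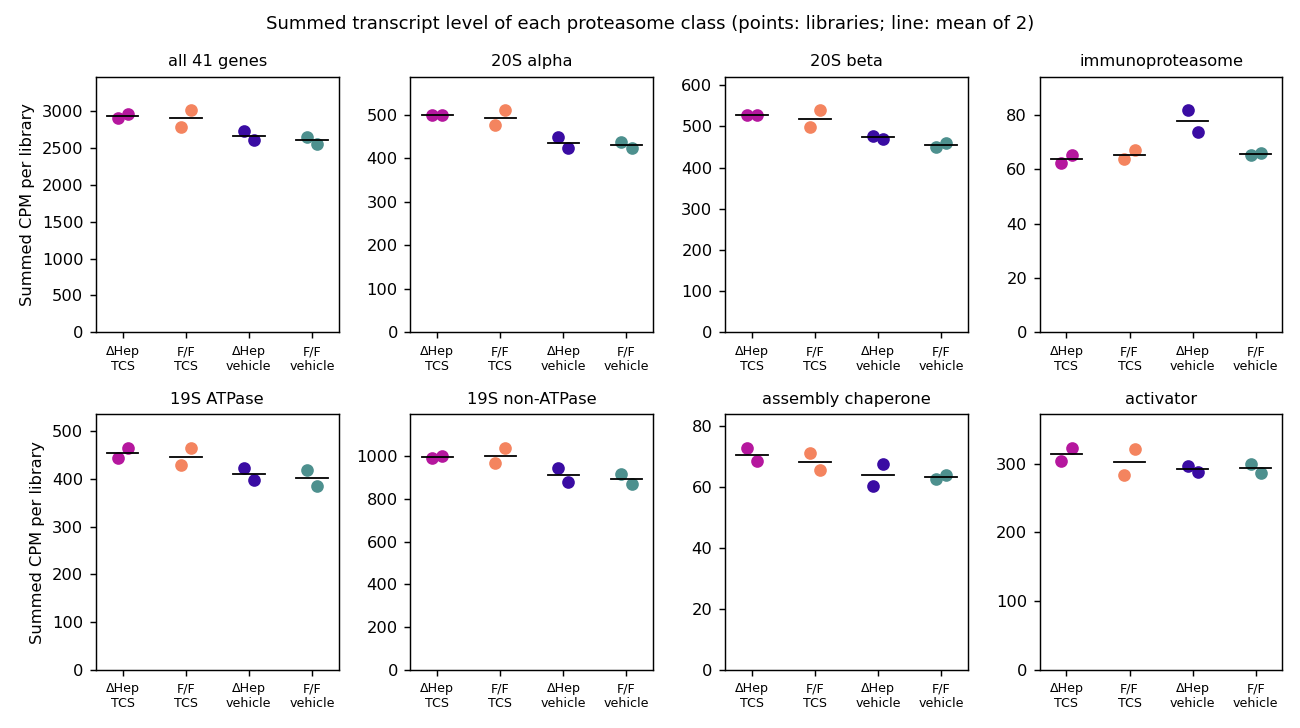
Summed CPM of each proteasome class by group, with the TCS groups left and the vehicle groups right. Points are the 2 libraries of a group and the line is their mean. The sum of all 41 genes was 2788 to 3006 CPM in the TCS libraries and 2557 to 2733 CPM in the vehicle libraries, whereas the immunoproteasome sum was highest in Atf4ΔHep mice given vehicle.

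The sums of the constitutive core and cap classes divided by treatment, and those of the other classes overlapped. The alpha subunits summed to 476 to 510 CPM with TCS and 423 to 450 CPM with vehicle, and the constitutive beta subunits to 498 to 539 CPM with TCS and 451 to 477 CPM with vehicle, without overlap. The ATPases summed to 430 to 466 CPM with TCS and 386 to 423 CPM with vehicle, also apart. The non-ATPases summed to 966 to 1039 CPM with TCS and 871 to 944 CPM with vehicle, apart as well. The assembly chaperones overlapped, with 65.4 to 72.8 CPM with TCS and 60.2 to 67.4 CPM with vehicle. The activators overlapped, with 283 to 323 CPM with TCS and 287 to 300 CPM with vehicle. The immunoproteasome subunits overlapped too, with 62.3 and 65.3 CPM in Atf4ΔHep and 63.7 and 67.1 CPM in Atf4F/F livers given TCS, against 81.7 and 73.9 CPM in Atf4ΔHep and 65.5 and 66.2 CPM in Atf4F/F livers given vehicle. Their sum was lower with TCS in Atf4ΔHep libraries, while the Atf4F/F vehicle libraries lay between the Atf4F/F TCS libraries.

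The activators open the core without the 19S cap. Psme1 and Psme2 form the interferon-inducible PA28 ring, Psme3 forms its nuclear relative and Psme4 encodes PA200. Psme1 was at 74.2 and 77.2 CPM in Atf4ΔHep and 71.7 and 74.1 CPM in Atf4F/F livers given TCS, against 68.4 and 65.2 CPM in Atf4ΔHep and 67.4 and 70.8 CPM in Atf4F/F livers given vehicle. Its treatments did not overlap, and its log2 fold change was 0.13 (SE 0.05, adjusted p = 0.195 by edgeR). Psme2, Psme3 and Psme4 had log2 fold changes of 0.06, 0.00 and 0.09, each with overlapping treatments.

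The immunoproteasome subunits were the members with the lowest log2 fold changes under TCS, with a median of -0.14. Psmb8 (LMP7), which takes the place of Psmb5, lies at chromosome 17, positions 34197721 to 34201454 (GRCm38). It was at 17.5 and 22.7 CPM in Atf4ΔHep and 19.3 and 21.2 CPM in Atf4F/F livers given TCS, against 28.2 and 27.9 CPM in Atf4ΔHep and 23.1 and 22.9 CPM in Atf4F/F livers given vehicle. All TCS libraries were below all vehicle libraries, by a narrow margin between the highest TCS and the lowest vehicle library. The log2 fold change was -0.33 (SE 0.09, 95% interval -0.52 to -0.13), with an unadjusted p of 0.00495 and an adjusted p of 0.0998 by edgeR, so that the gene was not called. Leaving out 1 library at a time gave -0.44 to -0.25.

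Psmb9 (LMP2), the counterpart of Psmb6, was at 13.5 and 12.2 CPM in Atf4ΔHep and 11.8 and 13.5 CPM in Atf4F/F livers given TCS, against 14.9 and 14.96 CPM in Atf4ΔHep and 12.4 and 13.9 CPM in Atf4F/F livers given vehicle. The treatments overlapped in Atf4F/F mice and were apart in Atf4ΔHep mice, and the averaged log2 fold change was -0.14 (SE 0.08, adjusted p = 0.450 by edgeR). Psmb10 (MECL-1), the counterpart of Psmb7, was at 31.3 and 30.5 CPM in Atf4ΔHep and 32.6 and 32.4 CPM in Atf4F/F livers given TCS, against 38.7 and 31.0 CPM in Atf4ΔHep and 29.9 and 29.4 CPM in Atf4F/F livers given vehicle. Here the order of the treatments differed between genotypes, and the averaged log2 fold change was -0.02 (SE 0.08).

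Since each immunoproteasome subunit competes with 1 constitutive subunit for its place in the ring, their counts were also set in a ratio within each library. The ratio of Psmb8 to Psmb5 counts was 0.584 and 0.820 in Atf4ΔHep and 0.777 and 0.892 in Atf4F/F livers given TCS, against 1.14 and 1.11 in Atf4ΔHep and 1.10 and 1.03 in Atf4F/F livers given vehicle. Thus Psmb8 had fewer counts than Psmb5 in each TCS library and more in each vehicle library, although counts of the 2 genes also reflect transcript length. The ratio of Psmb9 to Psmb6 counts was 0.152 and 0.128 in Atf4ΔHep and 0.124 and 0.144 in Atf4F/F livers given TCS, against 0.171 and 0.184 in Atf4ΔHep and 0.153 and 0.161 in Atf4F/F livers given vehicle. These TCS libraries were below the vehicle libraries too, with the nearest pair almost equal. The ratio of Psmb10 to Psmb7 counts overlapped, with 0.326 to 0.365 under TCS and 0.349 to 0.471 under vehicle. These 3 ratios are descriptions and were given no test.

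**Figure D4:**
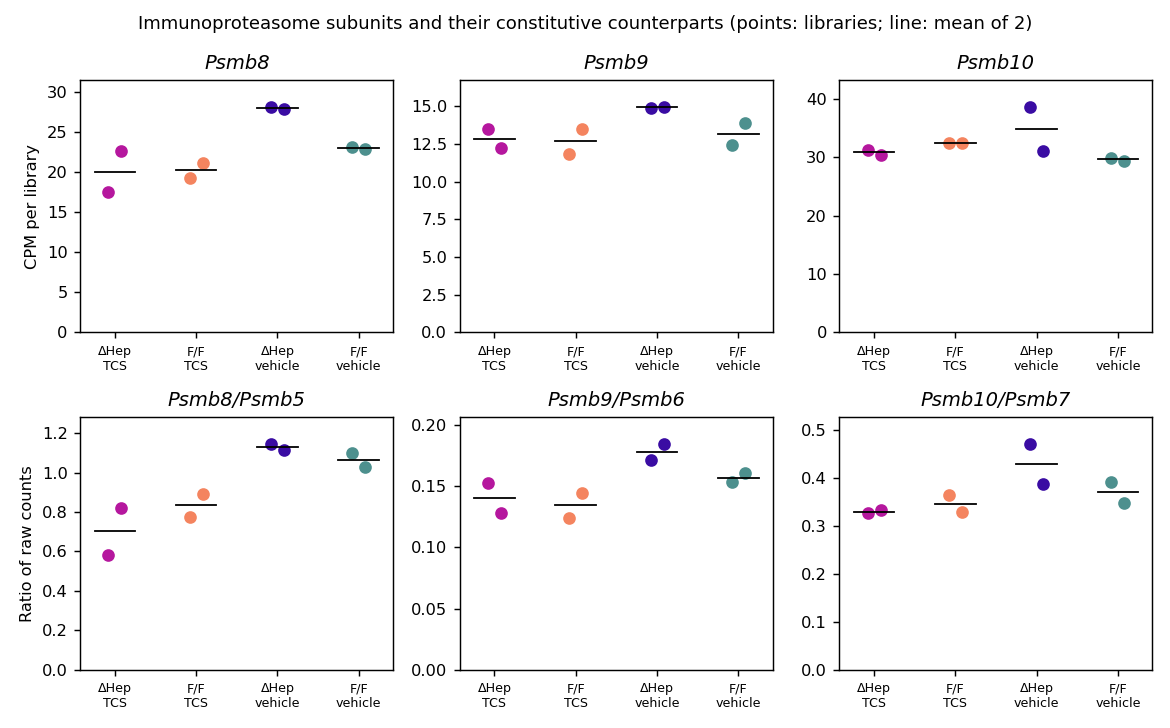
CPM of Psmb8, Psmb9 and Psmb10 by group (top) and the ratio of their raw counts to those of Psmb5, Psmb6 and Psmb7 in the same library (bottom). Points are libraries and lines the mean of 2, with the TCS groups left. The Psmb8 to Psmb5 ratio is 0.584 to 0.892 in the TCS libraries and 1.03 to 1.14 in the vehicle libraries.

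Markers of immune cells, which carry much of the immunoproteasome of a liver, had log2 fold changes under TCS that were mostly below 0. By edgeR at an unadjusted p under 0.05 there were 3 lower markers of dendritic cells and MHC class II, 5 of Kupffer cells, 4 of neutrophils and 0 of lymphocytes. Of all genes tested, 7.75% were lower and 9.41% higher at this threshold, and 48.5% had a log2 fold change above 0. Of 7 tested markers of dendritic cells and MHC class II, 0 had an averaged log2 fold change above 0 (median -0.24), and their summed level was 68.2 to 75.6 CPM in Atf4ΔHep and 60.5 to 75.5 CPM in Atf4F/F livers given TCS, against 92.0 to 98.2 CPM in Atf4ΔHep and 64.3 to 74.5 CPM in Atf4F/F livers given vehicle. Of 9 Kupffer cell markers 0 were above 0 (median -0.23), with a summed level of 458 to 544 CPM in Atf4ΔHep and 488 to 535 CPM in Atf4F/F livers given TCS, against 618 to 680 CPM in Atf4ΔHep and 472 to 640 CPM in Atf4F/F livers given vehicle. Of 7 neutrophil markers 0 were above 0 (median -0.64), with 12.3 to 26.7 CPM in Atf4ΔHep and 17.3 to 17.7 CPM in Atf4F/F livers given TCS, against 25.7 to 33.8 CPM in Atf4ΔHep and 29.1 to 32.8 CPM in Atf4F/F livers given vehicle. Of 10 lymphocyte markers 1 was above 0 (median -0.19), at 11.6 to 14.3 CPM with TCS and 14.1 to 15.4 CPM with vehicle. Lists of other liver cells lay below 0 as well, with 0 of 4 erythroid markers above 0 (median -0.43, 2 lower at an unadjusted p under 0.05 by edgeR), 1 of 6 endothelial markers (median -0.18, 3 lower) and 1 of 6 stellate cell markers (median -0.15, 3 lower). No marker of these lists was at 0 in all 8 libraries. The part of these cells in the Psmb8 and Psmb9 values was not tested. Of 8 hepatocyte markers 3 were above 0 (median -0.12), with 1 higher and 4 lower at an unadjusted p under 0.05 by edgeR. Their sum of 130353 to 145289 CPM with TCS and 145401 to 156900 CPM with vehicle was mostly Alb, at 100893 to 115464 CPM with TCS and 114310 to 124268 CPM with vehicle.

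The question whether hepatocyte ATF4 alters the TCS response was met by the comparison within each genotype and by their difference. In Atf4ΔHep mice 36 of 41 members were above 0 (48.9% of all genes), with a median log2 fold change of 0.14, and in Atf4F/F mice 39 of 41 (49.2% of all genes), with a median of 0.16. These comparisons share no library, and 36 members, 87.8%, were above 0 in both, against 32.1% of all genes. By edgeR's quasi-likelihood test 0 members were called in Atf4ΔHep mice, where 0.616% of all genes were called higher and 0.0587% lower, and 0 in Atf4F/F mice, where 0.513% were called higher and 0.044% lower. At an unadjusted p under 0.05 edgeR gave 12 members higher (6.56% of all genes) and 1 lower (4.94%) in Atf4ΔHep mice, and 15 higher (5.73%) and 0 lower (4%) in Atf4F/F mice. DESeq2 called 0 members in both, while it called 219 of all genes in Atf4ΔHep and 167 in Atf4F/F mice. The 2 TCS libraries lay above the 2 vehicle libraries for 28 members in Atf4ΔHep mice (21.5% of all genes) and for 28 in Atf4F/F mice (19.7% of all genes). They lay below for 2 members in Atf4ΔHep mice, Psmb8 and Psmb9 (21.5% of all genes), and for Psmb8 in Atf4F/F mice (19% of all genes). No member was apart in opposite directions in the 2 genotypes (0 of 41, against 2.59% of all genes).

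In Atf4ΔHep mice, where pools of like Xist level exist, the TCS library high in Xist was above the vehicle library high in Xist for 37 of 41 members, with a median log2 ratio of 0.13 against 0.00 over all genes. The TCS library low in Xist was above the vehicle library low in Xist for 35 of 41 members, with a median of 0.14. In the pair high in Xist the log2 ratios were -0.31 for Psmb8, -0.29 for Psmb9 and -0.34 for Psmb10, and in the pair low in Xist -0.68 for Psmb8, -0.15 for Psmb9 and 0.01 for Psmb10. In Atf4F/F mice no such pair existed. With the level of Y-linked genes as a covariate, which for Atf4F/F mice borrows the sex difference from the Atf4ΔHep pools, the median of the members was 0.14 in Atf4ΔHep mice and 0.08 in Atf4F/F mice.

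**Figure D5:**
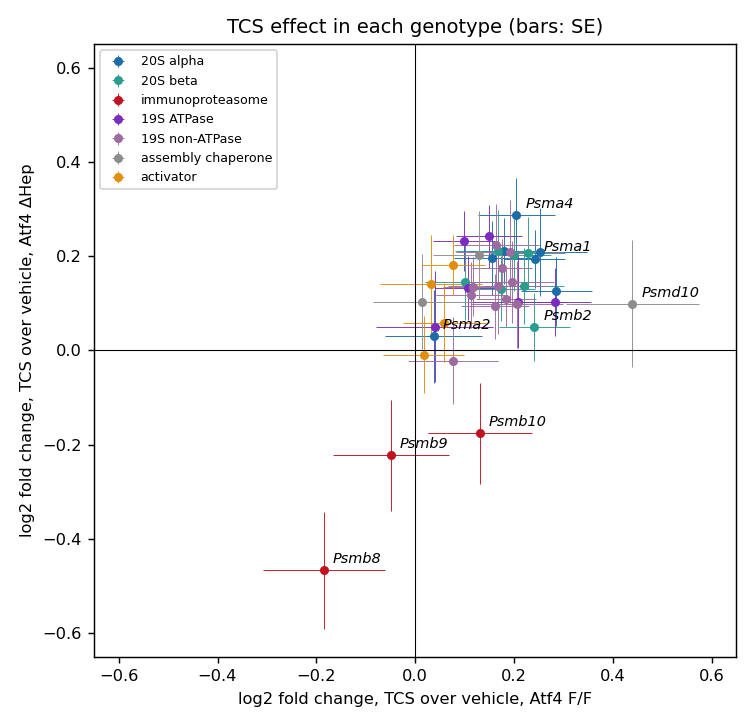
Log2 fold change of TCS over vehicle in Atf4ΔHep mice (vertical axis) and in Atf4F/F mice (horizontal axis) for each of the 41 genes, with bars for the standard error. The genotypes share no library, 36 genes are above 0 on both axes, and Psmb8 and Psmb9 are below 0 on both.

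The test of the difference between genotypes made no call among the members. For the interaction edgeR called 0 members at an adjusted p under 0.05, as it did 0% of all genes. At an unadjusted p under 0.05 it gave 0 members, against 1.05% of all genes higher and 1.02% lower, and DESeq2 called 0. Psmb8 had a log2 fold change under TCS of -0.47 (SE 0.12) in Atf4ΔHep and -0.18 (SE 0.12) in Atf4F/F mice, a difference of -0.28 with a 95% interval of -0.68 to 0.11. For Psmb10 the values were -0.18 (SE 0.11) in Atf4ΔHep and 0.13 (SE 0.11) in Atf4F/F mice, a difference of -0.31 (95% interval -0.65 to 0.03). For Psma1 they were 0.19 (SE 0.06) in Atf4ΔHep and 0.24 (SE 0.06) in Atf4F/F mice, a difference of -0.05 (95% interval -0.24 to 0.15).

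The deletion of Atf4 was compared under each treatment and on average, to see whether the subunits depend on this factor of the integrated stress response. Averaged over treatments, the median log2 fold change of Atf4ΔHep over Atf4F/F mice was 0.03, with 30 of 41 members above 0 (49.6% of all genes). By edgeR 0 members were called, against 0.022% of all genes higher and 0.022% lower. DESeq2 called 0 members and 12 of all genes. No member had its 4 Atf4ΔHep libraries wholly above or below its 4 Atf4F/F libraries, against 1.23% and 1.01% of all genes. At an unadjusted p under 0.05 edgeR gave 1 member higher and 0 lower, against 1.83% and 2.07% of all genes. This was Psmb5, whose log2 fold change was 0.22 (SE 0.06, unadjusted p = 0.00667, adjusted p = 1.00 by edgeR). Under TCS the Atf4ΔHep libraries of Psmb5 were above the Atf4F/F libraries, and under vehicle likewise, at the CPM given above. The immunoproteasome subunits had averaged log2 fold changes of 0.14 for Psmb8 (SE 0.09), 0.10 for Psmb9 (SE 0.08) and 0.08 for Psmb10 (SE 0.08), and Psmb3 was at 0.11 (SE 0.06). In the remaining classes the highest and lowest values were 0.05 for Psma1 and -0.05 for Psma2, 0.05 for Psmc5 and -0.02 for Psmc2, 0.08 for Psmd4 and -0.04 for Psmd1, 0.06 for Psmd10 and 0.01 for Psmd9, and 0.07 for Psme2 and 0.00 for Psme1. Within the core, Psmb2 was lowest of the beta subunits at -0.03.

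Under TCS alone, 25 of 41 members were above 0 in Atf4ΔHep relative to Atf4F/F mice (50.1% of all genes), with a median of 0.02. The libraries did not overlap for 7 members higher and 5 lower, against 15.3% of all genes in each direction. By edgeR 0 members were called (0.00734% of all genes higher, 0.0147% lower), and DESeq2 called 0 members and 7 of all genes. At an unadjusted p under 0.05 edgeR gave 1 member higher, Psmb5 at 0.24, and 0 lower, against 1.42% and 1.75% of all genes. Under vehicle, 30 members were above 0 (49.4% of all genes), with a median of 0.03. The libraries did not overlap for 10 members higher (15.3% of all genes) and 2 lower (14.9% of all genes). By edgeR 0 members were called (0.00734% of all genes higher, 0.0147% lower), and DESeq2 called 0 members and 5 of all genes. At an unadjusted p under 0.05 edgeR gave 1 member higher, Psmb8 at 0.28, and 0 lower, against 1.28% and 1.58% of all genes. All 3 immunoproteasome subunits were above 0 under vehicle, at 0.28 for Psmb8, 0.19 for Psmb9 and 0.23 for Psmb10. The only vehicle library high in Xist was an Atf4ΔHep library. Psmb10 was at 38.7 CPM there and at 31.0 CPM in the other Atf4ΔHep library. Leaving out 1 library at a time gave 0.07 to 0.38 for Psmb10. For 4 members, Psmb2, Psmb10, Psmc6 and Psmd10, the genotypes were apart in opposite directions under the 2 treatments, against 3.57% of all genes. Under TCS the log2 fold changes of the deletion were 0.00 for Psmb8, 0.01 for Psmb9 and -0.07 for Psmb10. Some other lists were higher under vehicle as well, and some were not. For Atf4ΔHep over Atf4F/F mice, markers of dendritic cells and MHC class II had a median of 0.46 under vehicle (6 of 7 above 0) and 0.20 under TCS, and Kupffer cell markers 0.14 under vehicle (8 of 9 above 0) and -0.03 under TCS. MHC class I genes had a median of 0.16 under vehicle (11 of 11 above 0) and -0.02 under TCS, and interferon response genes, 5 of them members, 0.20 under vehicle (21 of 24 above 0) and -0.02 under TCS. Lymphocyte markers had a median of 0.17 under vehicle and 0.23 under TCS, and neutrophil markers -0.04 under vehicle and 0.04 under TCS. Endothelial markers had -0.13 under vehicle and -0.05 under TCS, and stellate cell markers 0.01 under vehicle and -0.22 under TCS. Erythroid markers had -0.14 under vehicle and -0.56 under TCS. The part of these lists was not tested.

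Genes around the proteasome were read from lists outside the rule. Of 24 assembly factors, associated enzymes, receptors and regulators, 21 were tested, and 19 had an averaged log2 fold change of TCS over vehicle above 0 (48.5% of all genes), with a median of 0.09. By edgeR 0 were called, 7 were higher at an unadjusted p under 0.05 (9.41% of all genes) and 0 lower (7.75%). Nfe2l1, which encodes the factor NRF1 named above, was at 151 and 166 CPM in Atf4ΔHep and 163 and 186 CPM in Atf4F/F livers given TCS, against 140 and 134 CPM in Atf4ΔHep and 143 and 141 CPM in Atf4F/F livers given vehicle. Its treatments did not overlap, and its log2 fold change was 0.26 (SE 0.06, adjusted p = 0.0570 by edgeR). Usp14, a deubiquitinase of the cap, had 0.20, the core assembly factor Pomp 0.17 and the cap-associated thioredoxin-like Txnl1 0.17. The 6 ubiquitin and E1 genes had a median of 0.03 and 0 of them reached an unadjusted p under 0.05.

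The MHC class I pathway, which takes up peptides of the proteasome, was listed by 11 genes. Their median log2 fold change under TCS was -0.14 in Atf4ΔHep mice, with 0 of 11 above 0, and 0.04 in Atf4F/F mice, with 7 of 11 above 0. By edgeR 0 were called in either genotype. The class I heavy chain H2-D1 was at 54.5 and 68.4 CPM in Atf4ΔHep and 56.6 and 62.1 CPM in Atf4F/F livers given TCS, against 77.3 and 77.8 CPM in Atf4ΔHep and 63.1 and 69.6 CPM in Atf4F/F livers given vehicle, overlapping between treatments, with an averaged log2 fold change of -0.24 (SE 0.08). The list of 24 interferon response genes, of which 5 are members (Psmb8, Psmb9, Psmb10, Psme1 and Psme2), had a median of -0.14 in Atf4ΔHep and 0.09 in Atf4F/F mice and 0 called by edgeR. Averaged over genotypes, 11 of the 24 were above 0 (48.5% of all genes), with a median of -0.02. Apart from members, the genes of that list with the smallest p by edgeR were Stat2 and Gbp2. The transducer Stat2 had an averaged log2 fold change of -0.27 (SE 0.06, adjusted p = 0.0610 by edgeR) and the guanylate-binding protein Gbp2 of -0.49 (SE 0.15, adjusted p = 0.138 by edgeR).

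The exons of 15 members overlap another annotated gene, 14 of them on the opposite strand. Exons of Psmb9 overlap the span of the Tap1 gene and those of Psmb7 the span of Nek6, both on the opposite strand. Whether they overlap exons of these partners was not determined. The libraries were stranded, but the strand setting of the counting is not given in the sources used here. Values of these members may include reads of their partners. Psmb8 overlaps the antisense gene Gm20496, Psmb10 the antisense gene Gm16156 and Psma4 the protein-coding gene AY074887, all on the opposite strand. Psma1, Psmd2, Psmc1, Psmb6, Psmb4 and Psmd10 have no such overlap.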

How the data were processed

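Liver RNA of 8 pools of 2 mice each was sequenced from stranded mRNA libraries. According to the submitters' processing notes, bcl2fastq 2.20 and STAR 2.7.9a were used on mm10. The sources used here do not name the counting program or gene models. The counts per gene symbol, which the authors deposited without normalization, were used as they stand, through the column names of the table. The other deposited tables, of normalized values and of the authors' own comparisons (fold changes and p values), were not used.

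The analysis used R 4.3.3 and edgeR 4.0.16 (filterByExpr with a count minimum of 10, which kept 13633 genes, TMM and the quasi-likelihood test, with 1 mean per group, a common dispersion of 0.0142 and 4 residual degrees of freedom). Contrasts gave 7 comparisons, and p values were adjusted by Benjamini-Hochberg over all genes, with calls under 0.05. Standard errors were derived from the log2 fold change and its F statistic. The scripts were tested on simulated counts with known changes. A log2 change of 0.15 was recovered in 0 of 50 genes in each TCS comparison and in 2 of 50 in the averaged deletion. A log2 change of 1 was recovered in 49 or 50 of 50. A missing call at the smaller size is therefore no sign of an absent change. DESeq2 1.42.0, other scalings, no filter, the libraries of a comparison alone, a stricter threshold, a replicate block, a Y-linked covariate and each library left out were alternatives, and the pairs of like Xist level were chosen after seeing the data. Members and gene lists were chosen with earlier results of these data known. Genes were named by a rule: every immunoproteasome subunit and activator, every other member called or without overlap between treatments or genotypes, the highest and lowest of each class, and up to 4 list genes with the smallest p. Replicates are pools of different mice, and nothing in the labels pairs their numbers. Figures were drawn with matplotlib.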

Additional observations from a re-analysis of the deposited data

Results flagged for a closer look

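For 4 of the 41 members (9.76%, against 3.57% of all genes) the 2 Atf4ΔHep libraries lay wholly on one side of the 2 Atf4F/F libraries under TCS and wholly on the other side under vehicle. The difference between the genotypes in the TCS log2 fold change was -0.31 for Psmb10, -0.19 for Psmb2, 0.13 for Psmc6 and -0.34 for Psmd10. Each difference was tested as an interaction in edgeR, and none was called, with unadjusted p of 0.0719 for Psmb10, 0.0957 for Psmb2, 0.169 for Psmc6 and 0.109 for Psmd10, and adjusted p of 1.00 for all 4. For Psmd10 the log2 fold change of TCS over vehicle was 0.10 (SE 0.13) in Atf4ΔHep and 0.44 (SE 0.13) in Atf4F/F mice. For Psmb2, a constitutive beta subunit, it was 0.05 (SE 0.07) in Atf4ΔHep and 0.24 (SE 0.07) in Atf4F/F mice.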

How the results depend on the processing

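For TCS averaged over genotypes, the count of members called higher was 1, and it was 0 with an adjusted p under 0.01, 0 with the replicate block, 0 with the Y-linked covariate for the sex makeup, 2 with no filter, 3 with DESeq2, and 0 to 0 when each library was left out. The median log2 fold change of the members in Atf4F/F mice, 0.164, was 0.0768 with the covariate and 0.116 to 0.191 without 1 library. That of Atf4ΔHep over Atf4F/F mice under TCS, 0.018, was -0.0351 to 0.0676 without 1 library. With the covariate 6 values changed sign, namely Psmb10 (-0.0316) and Psmb9 (0.0151) under TCS in Atf4F/F mice and Psma2 (-0.0443), Psmc5 (-0.0385), Psmd6 (-0.0625) and Psme3 (-0.0317) under averaged TCS. Without 1 library the ranges under averaged TCS crossed 0 for Psma2 (-0.0323 to 0.0863), Psmb10 (-0.0967 to 0.0616), Psmc5 (-0.0237 to 0.110), Psmd6 (-0.0260 to 0.0668) and Psme3 (-0.0475 to 0.0504), and under TCS in Atf4F/F mice for Psmb9 (-0.148 to 0.0409). Counts of all genes called moved more. Averaged TCS gave 353, and 108 at 0.01, 538 with no filter, 488 with DESeq2, 111 with the covariate and 107 to 363 without 1 library. TCS in Atf4ΔHep mice gave 92, and 40 at 0.01, 200 with no filter, 189 with its libraries alone, 219 with DESeq2 and 11 to 107 without 1 library. TCS in Atf4F/F mice gave 76, and 35 at 0.01, 139 with no filter, 20 with the covariate, 33 with the libraries of the comparison alone, 167 with DESeq2 and 33 to 165 without 1 library. Deletion under TCS gave 3, and 5 with no filter, 7 with DESeq2 and 2 to 31 without 1 library. Deletion under vehicle gave 3, and 5 with the covariate and 5 with DESeq2. Averaged deletion gave 6, and 3 at 0.01, 3 with the block, 12 with DESeq2 and 3 to 4 without 1 library. The interaction gave 0, and 1 with the covariate. The replicate numbers pair nothing in the labels, and replicate differences of the groups correlated at -0.43 to 0.37. The cause of these changes was not tested. At 2 libraries a group, most members' log2 differences reached no call singly.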
